A study of Homo sapiens with 6 samples.

Results

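The genes described here are 48 interferon-stimulated genes, RNA and DNA sensors and STAT and IRF transcription factors, chosen by name from the 60612 genes of the table, and all 48 were found in it. Total RNA was sequenced from U87 cells, an established human glioblastoma line, in 3 libraries from cells carrying a scramble shRNA (NC) and 3 from cells carrying a PRMT6 shRNA (shPRMT6). PRMT6 is an arginine methyltransferase that places asymmetric dimethyl marks on histones and other proteins. Both groups were transduced with lentivirus, so the control cells also expressed a hairpin RNA and no untransduced cells were sequenced. The replicates were 3 independent ones per group, and no interferon, virus or nucleic acid ligand is named as a treatment. The sources used here do not name which PRMT6 shRNA was sequenced. Loss of PRMT6 and any other effect of the PRMT6 hairpin cannot be told apart in this design.

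Cells detect foreign or misplaced nucleic acid with receptors such as RIG-I and MDA5 for RNA in the cytosol, TLR3 for RNA in endosomes and cGAS for DNA. RIG-I and MDA5 signal through the adaptor MAVS, and cGAS through STING, to IRF3 and IRF7, which switch on type I interferon genes. Secreted interferon binds the IFNAR1 and IFNAR2 receptor, the kinases JAK1 and TYK2 activate STAT2 with IRF9, and this complex binds a short promoter sequence, the interferon-stimulated response element (ISRE), at antiviral genes such as the OAS, IFIT, IFITM and MX families. Interferon gamma acts through IFNGR1 and IFNGR2 and a different promoter sequence, the gamma-activated site (GAS), at genes that include IRF1.

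Promoter sequence was taken from RefSeq (GRCh38.p14), which held an entry for 37 of the 48 genes, each covering 250 bases before to 50 bases after the start of the gene. The first entry listed for a gene was used, and any other start of that gene was not searched. An ISRE-like sequence, a pair of GAAA blocks with 2 bases of any kind between them, searched on both strands (TTTC blocks on the other), was found in 19 of these 37 promoters (51.4%), and in 3.57% of all 35114 promoters of the same length. A GAS-like sequence, TTCNNNGAA, which reads alike on both strands, was found in 9 of 37 (24.3%) and in 7.66% of all promoters, and the 2 motifs can overlap, as in BST2 and IFI27. The windows below each show 1 match in capitals, in 30 bases read along the strand of the gene. They are shown because they belong to 4 genes that changed after knockdown and 2 interferon targets, ISG15 and IFI44, that did not pass the test. IFIT1 and ISG15 each held 2 ISRE-like matches, of which 1 is marked. The 2 matches of ISG15 overlap, and its window holds both.
OAS3, distal: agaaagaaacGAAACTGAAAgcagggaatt
OAS3, proximal: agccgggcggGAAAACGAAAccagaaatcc
IFIT1: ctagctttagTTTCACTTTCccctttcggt
DTX3L: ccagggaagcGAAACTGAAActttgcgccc
IRF1 (GAS-like): acagcctgatTTCCCCGAAatgacggcacg
ISG15: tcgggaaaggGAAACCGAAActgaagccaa
IFI44: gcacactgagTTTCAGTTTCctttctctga

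The distal OAS3 window lay at chr12:112938321-112938350 on the + strand, before the OAS3 gene model, and the proximal one at chr12:112938452-112938481, in the 5′ UTR of a GENCODE 29 OAS3 transcript. The IFIT1 window was upstream of the gene at chr10:89392497-89392526 (+). That of DTX3L, at chr3:122564322-122564351 (+), was in its 5′ UTR and inside a PARP9 intron. The IRF1 window was upstream at chr5:132490878-132490907 (-), the ISG15 window at chr1:1013380-1013409 (+) was in a GENCODE 29 intron of that gene, and the IFI44 window was upstream at chr1:78649761-78649790 (+). A match describes letters only. Of the genes in the promoter table, an ISRE-like match was present in 2 of 5 that rose (IFIT1 and DTX3L), in 1 of 2 that fell (OAS3) and in 15 of 28 that were tested and not called. PARP9 was counted as without a match, because its own window (chr3:122564735-122565034) does not reach the DTX3L match. No promoter entry was held for IFNAR2, IRF3, IRF7, DHX58, CGAS, STING1, OAS2, OASL, IFIT2, IFITM2 and MX2.

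The libraries held 56388161 to 75887696 counts assigned to genes. PRMT6, the targeted gene, was at 9.33, 7.97 and 7.19 CPM (counts per 1000000 counts of a library, scaled by TMM factors) in NC and at 3.57, 4.58 and 5.24 CPM in shPRMT6, a log2 fold change of -0.87 ± 0.187 (SE, n = 3 per group, adjusted p = 0.0225, edgeR). That call was lost without NC replicate 1 (adjusted p = 0.0613), shPRMT6 replicate 1 (0.0588) or shPRMT6 replicate 2 (0.0713). The mesenchymal and glial line markers VIM, NES, CD44, CAV1 and FN1 were expressed, while of the astrocyte markers GFAP stayed at or below 0.886 CPM and AQP4 was at 0. FN1 was itself called lower, at 2917 ± 311 CPM (SD, n = 3) in NC and 1768 ± 42.1 in shPRMT6 (log2 fold change -0.72, adjusted p = 0.00246, edgeR). CAV1 was at 314 CPM in NC replicate 3, against 668 and 663 in NC replicates 1 and 2. The leukocyte markers PTPRC, CD3E, CD14 and ITGAM had at most 11 counts in a library, the plasmacytoid dendritic cell markers CLEC4C and LILRA4 were at 0, and of the endothelial markers CDH5 had at most 4 counts while PECAM1 was at 2.55 to 3.24 CPM in NC and 3.66 to 5.23 in shPRMT6, and its part in the results was not tested. Of 2 genes listed as deleted in U87, CDKN2A had at most 2 counts, whereas MTAP had 22, 33 and 27 counts in NC and 25, 10 and 13 in shPRMT6, at most 0.434 CPM. In a bulk sample, fewer cells with a transcript and less of it per cell cannot be told apart.

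Measured per transcript length, in the deposited FPKM, the most abundant genes came from several roles. In NC the mean was 21.7 ± 1.68 FPKM (SD, n = 3) for IFNGR2, 19.2 ± 1.46 for IFITM3, 17.7 ± 0.757 for JAK1 and 14.4 ± 1.51 for IFI44. Of the 48 genes, 7 had a mean NC level of at least 10 FPKM, 24 were between 1 and 10, and 17 were below 1 FPKM. The low end held several of the best known antiviral genes, with MX1 at 0.0384 ± 0.018, OAS1 at 0.18 ± 0.0464 and BST2 at 0.489 ± 0.183 FPKM in NC. XAF1 was listed at 0 counts in all 6 libraries, CGAS had 3 counts in 1 shPRMT6 library and 0 elsewhere, and IFITM1 had 0, 1 and 8 counts in NC and 21, 29 and 4 in shPRMT6; these 3 genes were removed by the low-count filter. Low counts lay mostly on multiples of 4 in every library, so a count of 0 was taken to allow up to 12 counts, or 0.158 to 0.215 CPM, as counting error only.

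**Figure D1:**
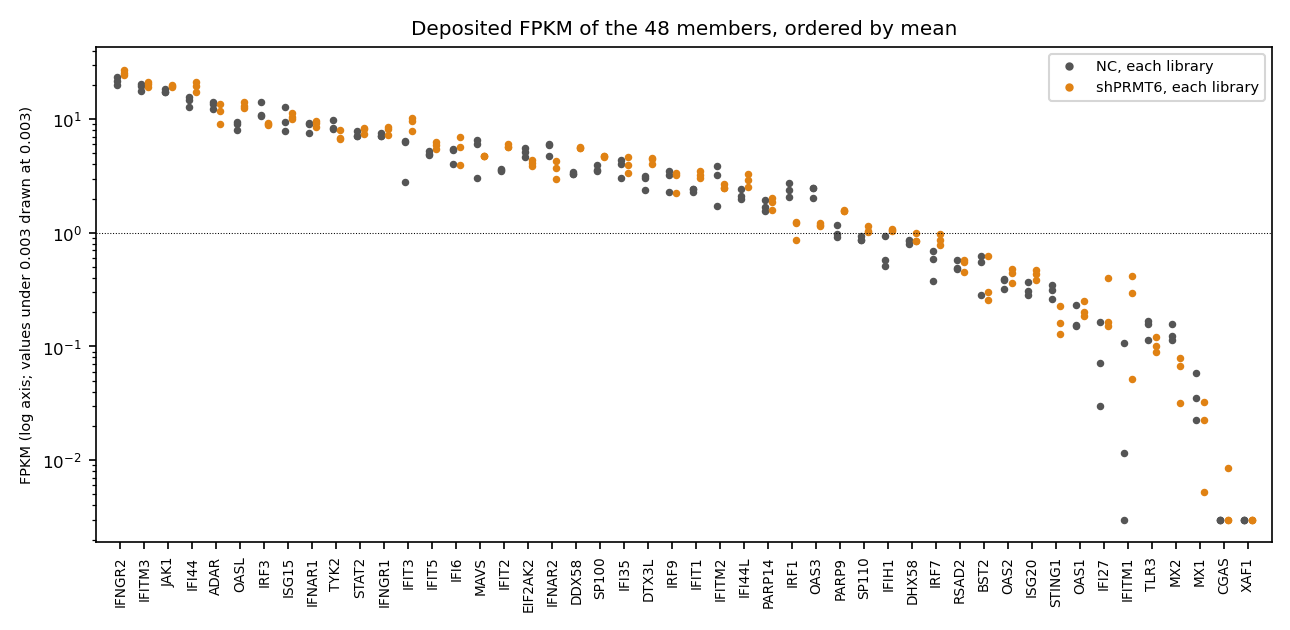
Deposited FPKM (log axis) of the 48 genes in each library, ordered by mean level from left to right, with NC in grey and shPRMT6 in orange. Levels run from above 20 FPKM for IFNGR2 to below 0.1 for MX1, and IFIT3 and MAVS show 1 NC library apart from the other two.

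After knockdown, 10 of the 45 genes tested passed an adjusted p of 0.05 (edgeR quasi-likelihood test, Benjamini-Hochberg adjustment over 18106 genes), which is 22.2%, beside 18.6% of all genes tested. The higher calls numbered 7, or 15.6% against a background of 9.51%, and were DDX58, OASL, IFIT1, IFIT2, PARP9, DTX3L and SP100. The lower calls numbered 3, or 6.67% against 9.06%, and were IRF1, OAS3 and IFNAR2. These shares at an adjusted p of 0.05 were near the background, so the number of calls is not a result about these genes. The median log2 fold change over the 45 was 0.11, beside -0.01 over all genes tested, with 30 values above 0 and 15 below. At an unadjusted p under 0.05 there were 24 of 45, beside 32.6% of all genes tested. The NC and shPRMT6 libraries did not overlap in CPM for 17 genes that were higher and 8 that were lower in shPRMT6 (20.3% and 19.9% of all genes, 40.2% in either direction), and overlapped for the other 20. The share with an unadjusted p under 0.05 was larger than over all genes tested. So was the share higher without overlap, but not the share lower without overlap. The genes were chosen with earlier results of these data known, so these shares are not read as a result about them. Only IRF1 and MX2 passed the cut-off of an absolute log2 fold change above 1 with an unadjusted p under 0.05, which 5.92% of all genes passed. The p-values set the difference between the groups against the spread within each group, and they hold for these 6 libraries only.

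**Figure D2:**
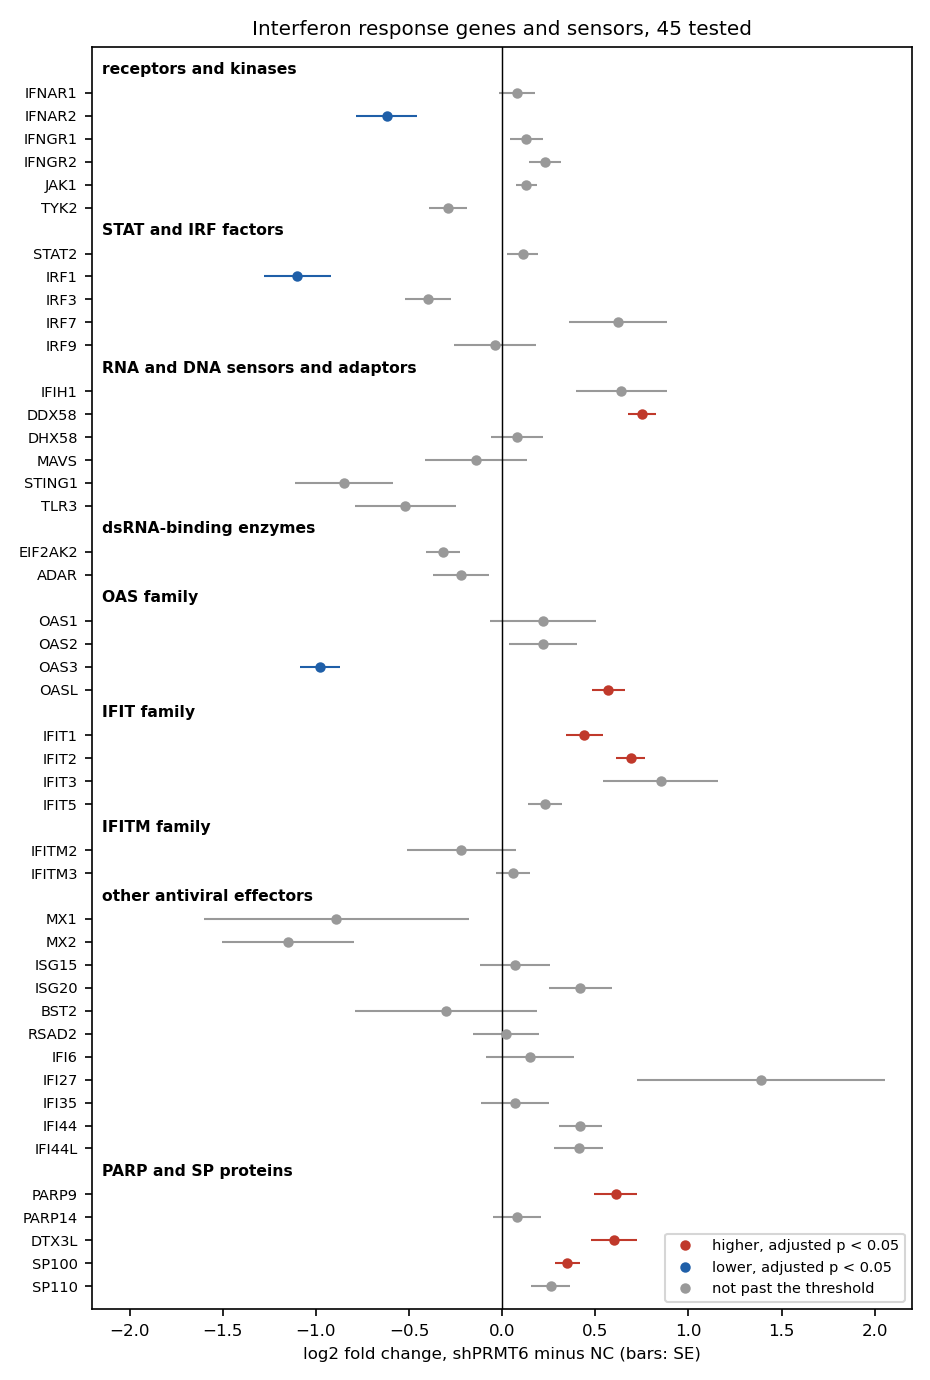
Log2 fold change of shPRMT6 minus NC for the 45 genes tested, grouped by role, with bars for the SE and colours for calls at an adjusted p below 0.05. The 7 higher calls lie between 0.35 and 0.75 and the 3 lower calls between -1.10 and -0.62. The points of the IFIT family and of the PARP and SP group lie above 0, with the bar of PARP14 (0.08 ± 0.127) crossing 0. Of all 18106 genes tested, 8856 had a value above 0.

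Among receptors and their kinases, 1 of 6 passed the test (16.7%, beside 18.6% of all genes tested), and the group's median log2 fold change was 0.10. IFNAR2, the chain of the type I interferon receptor that binds the ligand with high affinity, was lower. It was at 32.8, 33.4 and 25.8 CPM in NC and at 16.3, 20.5 and 23.1 CPM in shPRMT6, so that the groups did not overlap but came close, and the level was 1.53-fold lower (log2 fold change -0.62 ± 0.163, adjusted p = 0.0436). The call was lost on leaving out any library except NC replicate 3, with adjusted p-values of 0.101 (NC replicate 2), 0.108 (NC replicate 1), 0.104 (shPRMT6 replicate 1), 0.11 (shPRMT6 replicate 2) and 0.055 (shPRMT6 replicate 3). Its counts are uncertain, because 39.8% of its 75-base stretches also occur in another gene, chiefly the readthrough transcript AP000295.1, and 39.1% of its exonic bases face exons on the other strand. IFNAR1, the partner chain, was at 70.5 ± 7.58 CPM (SD, n = 3) in NC and 74.6 ± 4.65 in shPRMT6. For the interferon gamma receptor the log2 fold changes were 0.13 (IFNGR1) and 0.23 (IFNGR2), for JAK1 0.13 and for TYK2 -0.29, with adjusted p-values from 0.0993 (TYK2) to 0.38 (IFNGR1).

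Of the STAT and IRF factors, 1 of 5 passed (20%, beside 18.6% of all genes tested), and the median was -0.04. IRF1, a factor that interferon gamma induces and that itself activates interferon and antigen presentation genes, was at 25.5, 19.0 and 21.6 CPM in NC and at 11.3, 11.5 and 7.99 CPM in shPRMT6. Every shPRMT6 library was below every NC library, and the level was 2.15-fold lower (log2 fold change -1.10 ± 0.181, adjusted p = 0.009). The call was kept with each library left out in turn (adjusted p 0.0154 to 0.0341). Exons on the other strand, of C5orf56 and AC116366.3, face 28% of its exonic bases. C5orf56 had 31 to 82 counts in a library. AC116366.3 had 0 counts in every NC library and 66, 143 and 0 in shPRMT6. Whether reads of these genes affected the IRF1 count was not tested. IRF3, the factor that the sensors activate, was at 64.3, 48.3 and 48.9 CPM in NC and 39.9, 41.9 and 40.9 in shPRMT6, without overlap, and missed the threshold (log2 fold change -0.40 ± 0.123, adjusted p = 0.071). It shares 19.3% of its exonic bases with BCL2L12 on the opposite strand, which was itself lower (log2 fold change -0.87, adjusted p = 0.00838), and whether reads of BCL2L12 entered the IRF3 count was not tested. IRF7, the interferon-inducible relative of IRF3, stood at 1.77 ± 0.528 CPM in NC and 2.74 ± 0.294 in shPRMT6 (log2 fold change 0.62, adjusted p = 0.157). STAT2 and IRF9, partners in the ISRE-binding complex, had log2 fold changes of 0.11 and -0.04. For IRF9, 40.9% of the 75-base stretches occur in another gene, mainly AL136295.5.

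Among sensors and adaptors, DDX58 was the call, 1 of 6 tested (16.7%, beside 18.6% of all genes tested), with a group median of -0.03. DDX58 encodes RIG-I, the cytosolic receptor for RNA with a 5′ triphosphate end. Its level was 19.0, 18.2 and 17.9 CPM in the NC libraries and 30.8, 30.5 and 31.2 CPM in the shPRMT6 libraries. The replicates lay close together and the groups far apart, 1.68-fold higher after knockdown (log2 fold change 0.75 ± 0.0747, adjusted p = 0.00187). The call was kept with each library left out and under all 15 alternatives run. IFIH1, which encodes MDA5, the receptor for long RNA duplexes, was at 3.56, 5.71 and 3.06 CPM in NC and 6.55, 6.45 and 6.23 in shPRMT6. Its groups did not overlap, yet NC replicate 2 lay near the shPRMT6 libraries, and the log2 fold change of 0.64 ± 0.244 had an adjusted p of 0.123; without that library it was 0.95 (adjusted p = 0.015). DHX58, the third receptor of the RIG-I family, which modulates the other two, was at 3.84 ± 0.153 CPM in NC and 4.07 ± 0.356 in shPRMT6.

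MAVS, the mitochondrial adaptor of these receptors, was at 85.6, 91.6 and 41.7 CPM in NC and at 66.3, 66.5 and 66.3 CPM in shPRMT6. The shPRMT6 libraries were almost equal and sat between NC replicate 3 and the other two, so the log2 fold change of -0.14 ± 0.274 (adjusted p = 0.779) became -0.42 (adjusted p = 0.0235) without NC replicate 3 and 0.06 without NC replicate 2. STING1, the adaptor of cGAS, was low at 1.88, 1.59 and 1.97 CPM in NC and 0.942, 0.764 and 1.3 in shPRMT6, without overlap (log2 fold change -0.85 ± 0.265, adjusted p = 0.0713). Its upstream sensor CGAS had almost no counts. TLR3, the endosomal RNA receptor, was at 1.18 ± 0.237 CPM in NC and 0.826 ± 0.125 in shPRMT6 (log2 fold change -0.52, adjusted p = 0.242).

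Neither of the 2 enzymes that act on duplex RNA passed in edgeR (1 had an unadjusted p under 0.05, and DESeq2 called 1, EIF2AK2). Of all genes tested 32.6% had such an unadjusted p, and DESeq2 called 31.9%. EIF2AK2 (PKR), which halts translation when bound to such RNA, was at 59.5, 71.7 and 65.4 CPM in NC and 49.1, 52.7 and 55.7 in shPRMT6. The groups did not overlap, and the log2 fold change of -0.32 ± 0.0917 lay just outside the threshold (adjusted p = 0.056); it was -0.39 (adjusted p = 0.0395) without NC replicate 1. ADAR, which edits adenosines in duplex RNA, was at 153 ± 10.2 CPM in NC and 131 ± 27.0 in shPRMT6, with overlap (log2 fold change -0.22, adjusted p = 0.366).

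The OAS family, whose enzymes make oligoadenylates that activate the ribonuclease RNase L, held 2 calls of 4, in opposite directions. Of all genes tested 18.6% were called, and a share of 4 genes is not read as a result about the family. OAS3, the largest synthetase, was at 19.7, 23.9 and 23.7 CPM in NC and at 11.2, 11.8 and 11.2 CPM in shPRMT6. All shPRMT6 libraries were far below all NC libraries, 1.97-fold lower (log2 fold change -0.98 ± 0.107, adjusted p = 0.00238). OASL, a family member without synthetase activity that binds and aids RIG-I, was at 39.6, 33.6 and 37.8 CPM in NC and 58.7, 54.4 and 52.0 CPM in shPRMT6. It moved the other way, 1.49-fold higher without overlap (log2 fold change 0.57 ± 0.09, adjusted p = 0.00785). Both calls were kept with each library left out in turn, with adjusted p-values of 0.00405 to 0.0157 for OAS3 and 0.0156 to 0.0351 for OASL. OAS1 and OAS2 were low and their groups overlapped. OAS1 was at 1.11 ± 0.31 CPM in NC and 1.28 ± 0.211 in shPRMT6, and OAS2 at 2.74 ± 0.276 and 3.2 ± 0.476, each with a log2 fold change of 0.22 (adjusted p = 0.659 and 0.46). OAS1, OAS3 and OAS2 lie side by side on the + strand of chromosome 12, with starts 31575 and 40043 bases apart (GRCh38), so the gene that fell is flanked by 2 that did not pass. Outside the OAS family, 8 of 41 genes passed (19.5%), 6 higher and 2 lower, with a median log2 fold change of 0.08, against 0.22 for the 4 OAS genes. With 4 genes, nothing is read from that gap.

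The IFIT family, proteins that bind viral RNA lacking the cap methylation of host messages, held 2 calls of 4, both higher. The median log2 fold change was 0.56. Of all genes tested 9.51% were called higher, and a share of 4 genes is not read as a result about the family. IFIT2 was at 17.0, 17.7 and 17.2 CPM in NC and at 28.9, 27.2 and 27.5 CPM in shPRMT6. The spread within a group was small beside the gap, 1.61-fold higher (log2 fold change 0.69 ± 0.0769, adjusted p = 0.00247), and the call was kept with each library left out and under all 15 alternatives. IFIT1, the member that grips the RNA end most directly, was at 13.5, 13.5 and 12.4 CPM in NC and 19.1, 17.7 and 16.4 in shPRMT6. It was 1.35-fold higher without overlap (log2 fold change 0.44 ± 0.0996, adjusted p = 0.0281), but the call was lost on leaving out any 1 library (adjusted p 0.0511 to 0.096). IFIT3, a stabilising partner of IFIT1, was at 8.53, 19.3 and 18.6 CPM in NC and 23.7, 31.1 and 29 in shPRMT6. NC replicate 1 stood apart at the low end, and the log2 fold change of 0.85 ± 0.307 did not pass (adjusted p = 0.109). IFIT5 was at 24.0 ± 1.01 CPM in NC and 28.1 ± 2.19 in shPRMT6 (log2 fold change 0.23, adjusted p = 0.135). All 4 genes were thus higher without overlap, as were 20.3% of all genes tested, and nothing is read from so short a list. The IFIT genes lie together on the + strand of chromosome 10 in the order IFIT2, IFIT3, IFIT1, IFIT5. Their starts are 44200, 64652 and 22040 bases apart. Of the IFIT2 75-base stretches, 6.88% occur in another gene.

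**Figure D3:**
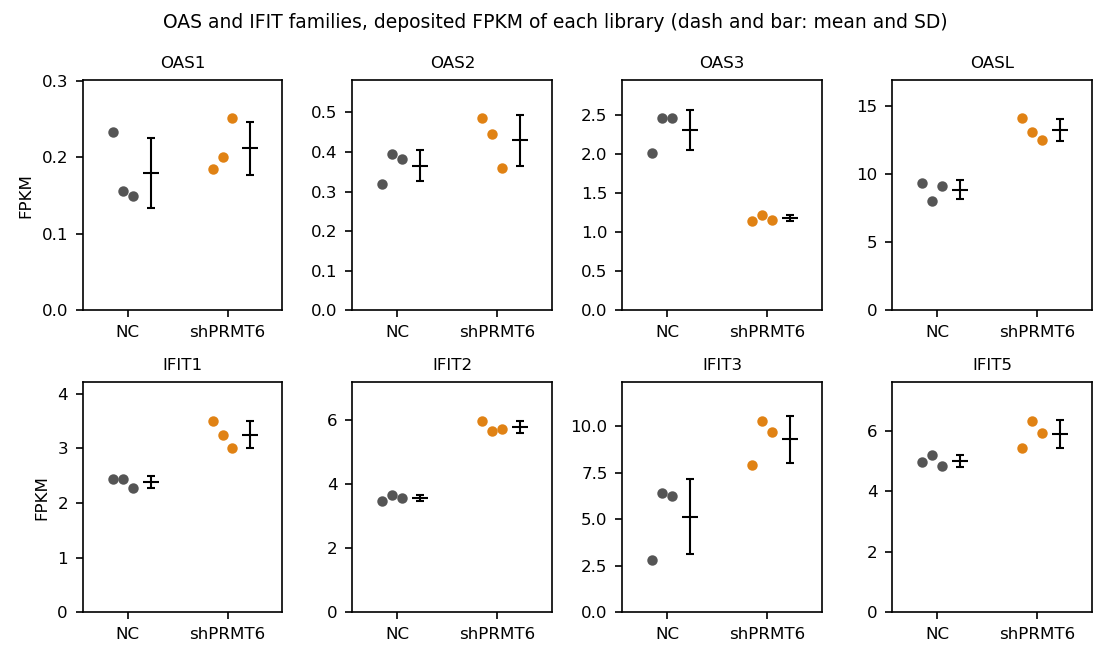
Deposited FPKM of the OAS (top) and IFIT (bottom) genes in each library, with a dash and bar for the mean and SD of 3 libraries and a separate axis from 0 for each gene. OAS3 falls from a mean of 2.31 to 1.18 FPKM while OASL goes from 8.85 to 13.2, and all 4 IFIT genes sit higher in shPRMT6, with NC replicate 1 low for IFIT3.

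The IFITM proteins, which block virus fusion at membranes, held 0 calls of 2 in edgeR and in DESeq2, and 0 with an unadjusted p under 0.05. IFITM3 was at 26.3 ± 2.12 CPM in NC and 27.4 ± 1.25 in shPRMT6, and IFITM2 at 5.46 ± 2.07 and 4.67 ± 0.235. These genes are near copies of each other, and 24.2% of the IFITM2 and 8.05% of the IFITM3 75-base stretches occur in another gene.

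None of the 11 other antiviral effectors tested passed the threshold (edgeR, adjusted p), while 4 had an unadjusted p under 0.05 and DESeq2 called 3, MX2, IFI44 and IFI44L. Over all genes 32.6% had such an unadjusted p and DESeq2 called 31.9%, so neither count is a result about this group. The median log2 fold change was 0.07. The largest negative value was that of MX2, a GTPase that blocks entry of retroviral genomes into the nucleus. It was at 1.95, 1.79 and 2.45 CPM in NC and 1.04, 1.23 and 0.517 in shPRMT6, without overlap (log2 fold change -1.15 ± 0.354, adjusted p = 0.0694). MX1, the related inhibitor of influenza and other viruses, had 4 to 46 counts in a library (log2 fold change -0.89, adjusted p = 0.446). IFI44 was at 38.5, 36.0 and 30.7 CPM in NC and 42, 47.1 and 51.3 in shPRMT6, and lay just outside the threshold (log2 fold change 0.42 ± 0.117, adjusted p = 0.0526). Its neighbour IFI44L was at 26.6 ± 3.14 CPM in NC and 35.2 ± 4.5 in shPRMT6 (log2 fold change 0.41, adjusted p = 0.0796). ISG20, an exonuclease that degrades viral RNA, had groups without overlap at 2.74 ± 0.363 and 3.68 ± 0.332 CPM (log2 fold change 0.42, adjusted p = 0.142).

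Several genes that serve as common readouts of interferon action had overlapping groups. ISG15, the ubiquitin-like modifier, was at 9.82, 8.02 and 13.1 CPM in NC and 10.7, 11.6 and 10.2 in shPRMT6 (log2 fold change 0.07 ± 0.188). RSAD2 (viperin), which makes a chain-terminating nucleotide, was at 2.92 ± 0.306 and 2.97 ± 0.381 CPM (log2 fold change 0.02 ± 0.177). IFI6 and IFI35 had log2 fold changes of 0.15 and 0.07, and BST2, which tethers virions to the membrane, one of -0.30 at 0.65 ± 0.235 and 0.526 ± 0.261 CPM. IFI27, with 13 to 138 counts in a library, had the largest positive value (log2 fold change 1.39 ± 0.666, adjusted p = 0.204), led by shPRMT6 replicate 3 at 2.04 CPM against 0.848 and 0.796 in the others.

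The PARP and SP proteins held 3 calls of 5, all higher, with a median of 0.35. Of all genes tested 9.51% were called higher, and a share of 5 genes is not read as a result about the group. PARP9, of the ADP-ribosyltransferase family, and DTX3L, the ubiquitin ligase it binds, act as a pair that promotes interferon signalling. PARP9 was at 10.6, 12.4 and 9.66 CPM in NC and at 16.4, 16.8 and 16.5 CPM in shPRMT6 (log2 fold change 0.61 ± 0.116, adjusted p = 0.0153). DTX3L was at 16.4, 20.7 and 21.5 CPM in NC and 27.6, 30.7 and 30.7 in shPRMT6 (log2 fold change 0.60 ± 0.124, adjusted p = 0.0193). Neither overlapped between groups, and both were 1.52-fold higher. They are divergent genes on chromosome 3 whose first exons overlap, with starts 339 bases apart, and the DTX3L window printed above lies in this shared start region. The overlap covers 2.4% of the PARP9 and 3.7% of the DTX3L exonic bases. The PARP9 call was lost without any 1 of shPRMT6 replicates 1 to 3 (adjusted p = 0.0541, 0.06 and 0.0542), and that of DTX3L without shPRMT6 replicate 2 (0.0716) or 3 (0.0682).

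SP100, a component of nuclear bodies that silences viral DNA, was at 60.7, 65.9 and 58.5 CPM in NC and at 78.5, 80.0 and 77.6 CPM in shPRMT6. The groups were well separated, although the rise was small, 1.28-fold (log2 fold change 0.35 ± 0.0674, adjusted p = 0.0155). The call was lost without NC replicate 3 (adjusted p = 0.0578) or shPRMT6 replicates 1 (0.0591), 2 (0.0681) or 3 (0.0532). Its relative SP110 was at 9.4 ± 0.515 CPM in NC and 11.2 ± 0.732 in shPRMT6 without overlap (log2 fold change 0.26, adjusted p = 0.144). Exons on the other strand, of SP140 and AC009950.1, face 20.9% of its exonic bases, and SP140 was itself higher (log2 fold change 1.53, adjusted p = 0.00139). PARP14, near DTX3L on chromosome 3, was at 21.0 ± 2.37 and 22.2 ± 2.51 CPM, with overlap.

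**Figure D4:**
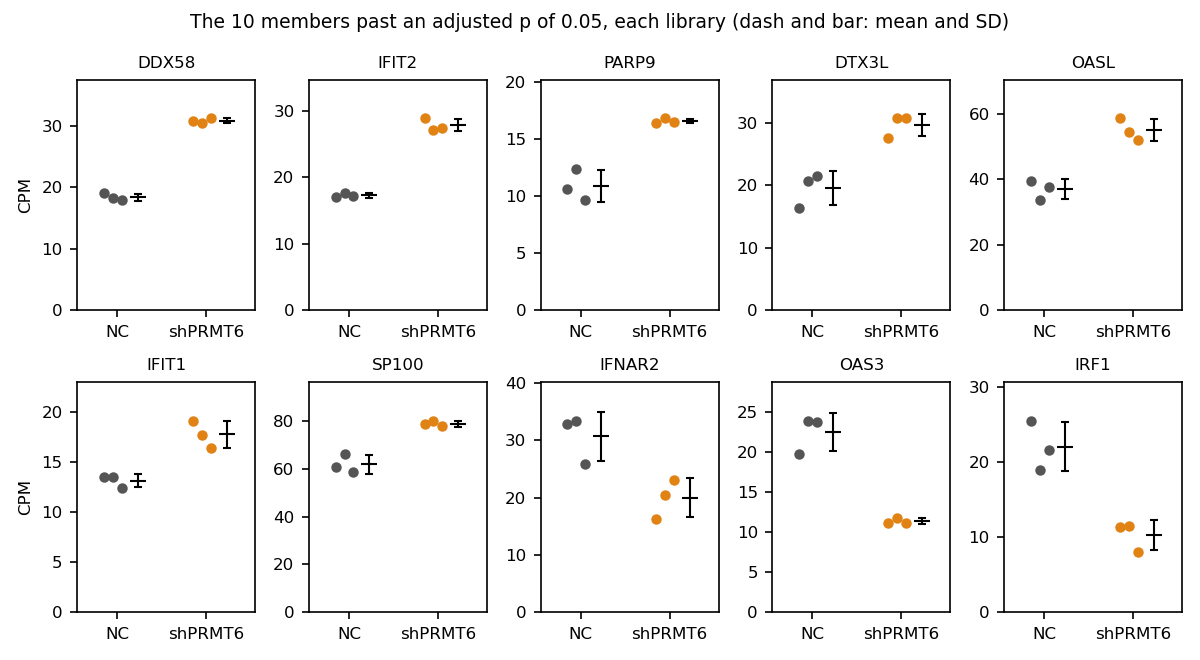
CPM in each library of the 10 genes that passed an adjusted p of 0.05, from the largest rise to the largest fall, with a dash and bar for the mean and SD of 3 libraries and each axis from 0. DDX58, IFIT2 and OAS3 show groups far apart with little spread, whereas the IFNAR2 groups nearly touch, with NC replicate 3 at 25.8 and shPRMT6 replicate 3 at 23.1 CPM.

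A further 135 genes of the pathway were listed by role and found, of which 95 were tested and 40 had too few counts. Of the 95, 32 passed (33.7%, beside 18.6% of all genes), 17 higher and 15 lower, with a median log2 fold change of 0.05. These lists were chosen with earlier results of these data known, so their shares of calls are not a result about the pathway. The ligands themselves were not detectable at a level that could be tested. Of 22 interferon genes, 19 were at 0 in every library, including IFNB1, IFNG and all IFNA genes, and the highest count was 19, for IFNL1, which had 19, 12 and 0 counts in NC and 8, 8 and 0 in shPRMT6. Among 7 further receptors, kinases, STAT and IRF genes, 3 passed, all higher (9.51% of all genes tested were called higher). STAT3, which carries interleukin signals of the IL-6 type, was at 57.5, 58.2 and 56.3 CPM in NC and 97.8, 101 and 108 in shPRMT6 (log2 fold change 0.83 ± 0.0622, adjusted p = 0.000822). STAT4 was higher at a low level, 0.524 ± 0.057 against 1.42 ± 0.144 CPM (log2 fold change 1.43, adjusted p = 0.00994). IRF2, which competes with IRF1 for DNA, was higher by 0.37 on the log2 scale (adjusted p = 0.0355), a call lost without any 1 library except NC replicate 1, with adjusted p-values from 0.0634 without NC replicate 2 to 0.122 without shPRMT6 replicate 2.

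In the sensing and signalling list, 7 of 18 passed (38.9%, beside 18.6% of all genes tested), 2 higher and 5 lower. TRIM25, a ubiquitin ligase that activates RIG-I, was at 88.6, 94.9 and 88.1 CPM in NC and 54.6, 55.3 and 62.8 in shPRMT6, a direction opposite to that of DDX58 (log2 fold change -0.65 ± 0.0779, adjusted p = 0.00312). NLRX1, a mitochondrial protein that restrains MAVS, was at 3.43, 2.63 and 4.36 CPM in NC and 1.57, 1.12 and 0.842 in shPRMT6 (log2 fold change -1.56, adjusted p = 0.0169). UNC93B1, the chaperone of endosomal Toll-like receptors, was lower (log2 fold change -0.54, adjusted p = 0.0182), and AIM2, a cytosolic DNA sensor of the inflammasome, was higher (0.55, adjusted p = 0.0202). The TRIM25 call was kept with each library left out. Those of NLRX1 (adjusted p 0.0525 to 0.0662 without NC replicate 3, shPRMT6 replicate 2 or 3), UNC93B1 (0.0643 to 0.0686 without any 1 shPRMT6 library) and AIM2 (0.0504 to 0.0717 without NC replicate 3 or any 1 shPRMT6 library) were not.

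Negative regulators were split, with 6 of 13 called (46.2%, beside 18.6% of all genes tested), 3 higher and 3 lower. USP18, which removes ISG15 from proteins and blocks IFNAR2 signalling, was at 2.16, 1.42 and 1.43 CPM in NC and 5.59, 5.85 and 5.15 in shPRMT6, or 3.31-fold higher (log2 fold change 1.73 ± 0.214, adjusted p = 0.00355). Of its 75-base stretches, 18.3% occur in USP41, a near copy. CYLD, a deubiquitinase that dampens RIG-I, was at 90.9 ± 20.1 CPM in NC and 160 ± 2.51 in shPRMT6 (log2 fold change 0.81, adjusted p = 0.0128). TNFAIP3 (A20), which limits NF-kB and IRF3 activation, was at 50.6, 50.8 and 47.2 CPM in NC and 29.3, 29.6 and 29.7 in shPRMT6 (log2 fold change -0.75 ± 0.0682, adjusted p = 0.00149). SOCS3, the feedback inhibitor of STAT3 signalling, was at 68.8 ± 2.21 and 47.6 ± 2.82 CPM (log2 fold change -0.53, adjusted p = 0.00458). STAT3 and its inhibitor thus moved in opposite directions.

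Among 46 further interferon-stimulated genes tested, 11 passed (23.9%, beside 18.6% of all genes tested), 7 higher and 4 lower, with a median of 0.08. DDX60L, a helicase related to an aide of RIG-I, was at 7.39, 8.38 and 7.55 CPM in NC and 17.2, 17.7 and 18.3 in shPRMT6 (log2 fold change 1.19 ± 0.0983, adjusted p = 0.00114). SLFN5 was at 143 ± 17.6 and 220 ± 5.45 CPM (log2 fold change 0.62, adjusted p = 0.00673). APOBEC3B, a cytidine deaminase, was lower at 35.4 ± 1.6 against 21.7 ± 0.882 CPM (log2 fold change -0.71, adjusted p = 0.00251), and 30.7% of its stretches occur in paralogs such as APOBEC3A. HELZ2, a helicase, was lower by -0.69 on the log2 scale (adjusted p = 0.00775).

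Of 11 enzymes that clear nucleic acid from the cell, 5 passed (45.5%, beside 18.6% of all genes tested), 2 higher and 3 lower. RNASEH2A, the catalytic subunit of the ribonuclease that removes RNA from DNA hybrids, was at 92.2, 70.0 and 83.1 CPM in NC and 43.0, 42.5 and 43.0 in shPRMT6, or 1.91-fold lower (log2 fold change -0.93 ± 0.106, adjusted p = 0.00259). Of its 75-base stretches, 25.4% occur in another gene, chiefly THSD8. PNPT1 and SUPV3L1 form the complex that degrades RNA in mitochondria, and they moved in opposite directions. PNPT1 was at 32.5 ± 0.709 and 20.8 ± 0.641 CPM (log2 fold change -0.65, adjusted p = 0.00267), and SUPV3L1 at 33.8 ± 0.841 and 47.2 ± 2.14 (0.48, adjusted p = 0.00605). TREX1, the cytosolic DNA exonuclease, was at 0.452 ± 0.0307 CPM in NC and 1.4 ± 0.297 in shPRMT6 (log2 fold change 1.63, adjusted p = 0.00943), but all its exonic bases lie in ATRIP exons on the same strand, so the 2 genes cannot be told apart in these counts.

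**Figure D5:**
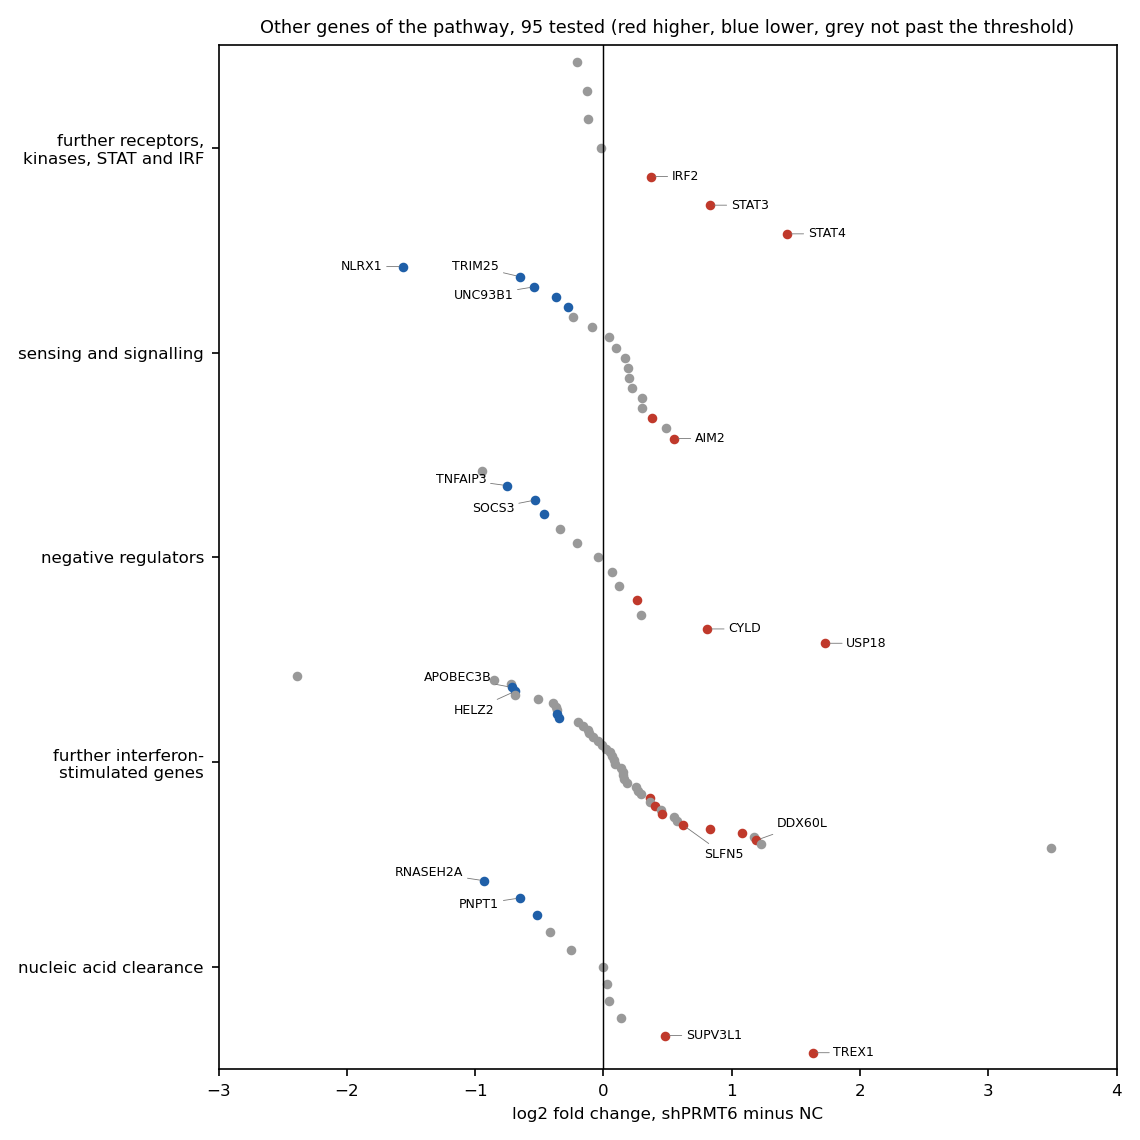
Log2 fold change of shPRMT6 minus NC for the 95 other pathway genes tested, by list, with red for higher and blue for lower at an adjusted p below 0.05 and grey for the rest; within a list the genes are spread vertically only to separate them. USP18 (1.73) and TREX1 (1.63) lie farthest to the right among the named genes and NLRX1 (-1.56) farthest to the left, and most lists hold calls on both sides of 0.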

How the data were processed

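RNA-seq libraries from U87 cells with a scramble or a PRMT6 shRNA were analysed (3 per group). The authors deposited 1 table of raw counts per Ensembl gene with the matching FPKM. The submitters' processing notes name HISAT2, HTSeq 0.13.5 and GRCh38 without roles. The labels name the NEBNext Ultra RNA kit, and use of strand in counting is not given in the sources used here, so antisense overlaps are stated beside the genes. Genes were named with GENCODE 29. Genes were tested on the counts with edgeR 4.0.16 (filterByExpr, TMM, quasi-likelihood test, Benjamini-Hochberg adjustment), without a block. The deposited FPKM served for levels and for limma 3.58.1 alternatives. DESeq2 1.42.0, other filters, no scaling factors, a replicate block and leaving out each library were further alternatives. Counts divided by 4 was added after seeing the data. In simulated counts for 17569 genes, of which 200 were changed, edgeR recovered 66.7% of 2-fold and 97.3% of 4-fold changes with 5.08% false calls. No 2 replicates were alike enough to be 1 library deposited again (reduced chi-square at least 53).

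Values are given for every member of the gene list. 1 listed marker gene is not reported here. From each of the 6 lists of other pathway genes, up to 4 called genes with the smallest p were named. The members and lists were chosen with earlier results of these data known. SD is over 3 libraries and SE is that of the fitted log2 fold change. A 75-base stretch is any run of that length from a gene's GENCODE 29 transcripts.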

Additional observations from a re-analysis of the deposited data

How the results depend on the processing

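Over 15 alternatives, 645 log2 fold changes of the 45 genes were recomputed, of which 578 kept direction and side of the threshold, 32 lost a call, 22 gained one and 13 changed sign. The sign changes came from leaving out 1 library and concerned uncalled genes: IRF9 (3 times, range -0.20 to 0.13), MAVS (-0.42 to 0.06), IFITM2 (-0.50 to 0.03), ISG15 (-0.08 to 0.28), RSAD2 (4 times, -0.04 to 0.12), IFI6 (-0.04 to 0.35) and IFI35 (-0.07 to 0.18). DESeq2 called 14 genes higher and 8 lower (22 of the 45), 27 other pathway genes higher, and 5782 genes in all (31.9%) against 3362 with edgeR. Its share of the 45 was larger than its share of all genes, and nothing is read from that. In simulated counts the false calls of DESeq2 were 17.5%. Only 200 of 17569 genes were changed there, so that share need not hold for these data. The limma fit without a filter, which tests 60612 genes, called 2 higher, 0 lower and 0 OAS genes, 5 other pathway genes higher and 4 lower, and 940 genes in all, with PRMT6 at -0.47 (adjusted p = 0.172). With counts divided by 4, 5 genes were lower. That setting called 3655 of the 14759 genes it tested, against 3362 of 18106 in the main fit. With 1 library left out, 3 to 7 genes were higher and 2 to 4 lower, 9 to 19 other pathway genes higher and 7 to 13 lower, and 2 OAS genes were called each time; all genes called numbered 1755 to 3183, and PRMT6 ranged from -1.0 to -0.73. Genes past the log2 cut-off of 1 numbered 0 (limma, log2(FPKM + 1), with or without a filter), 1 (limma, log2(FPKM + 0.1)) and 1 to 3 with a library left out, against 2. Replicate numbers did not pair the libraries: same-number correlations of deviations were -0.0248, -0.0171 and -0.0301, and the libraries did not each correlate best with their own number. With the replicate block, 10 other pathway genes were higher and 7 lower, 8 of the 10 calls were shared (IFNAR2 and IFIT1 lost), 1858 genes were called, and PRMT6 was at -0.88 (adjusted p = 0.0803). Causes were not tested. Depth leaves XAF1, CGAS, IFITM1 and the interferon genes undecided. IFNB1 (chr9:21077105-21077963) and the IFNA genes also lie near MTAP (chr9:21802543-21937651) and CDKN2A, the genes listed as deleted in U87. Whether these interferon genes are present in the cells was not tested.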

Other observations

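Low counts were not spread evenly. In each library 1240 to 1399 genes had exactly 4 counts, against 398 to 421 with 3 and 223 to 269 with 5, and 674 to 739 genes had exactly 8, against 243 to 293 with 7 and 141 to 171 with 9. STAT4, TREX1, MX2 and STING1 were among the genes named above with few counts, 26 to 153 in a library, and with counts divided by 4 MX2 passed the threshold (log2 fold change -1.15, adjusted p = 0.0476). The cause of the steps was not tested.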
